A study of Mus musculus with 9 samples.

Results

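The genes described here are 10 parts of the hypoxia-inducible factor 1 (HIF-1) pathway that lie outside glycolysis: the subunit genes Hif1a and Arnt, the hydroxylase genes Egln1, Egln2, Egln3 and Hif1an, the ubiquitin ligase gene Vhl, and the target genes Vegfa, Bnip3 and Bnip3l. They were taken by symbol from the deposited table of raw counts, and all 10 were found among its 28111 genes. All 10 also passed the filter on low counts that left 14817 genes for testing. The libraries were mRNA sequencing profiles of induced regulatory T cells (Treg), that is, T cells made to take on the Foxp3-positive regulatory state outside the body, from C57BL/6J mice. Of 9 libraries, 5 were from wild-type mice (WT) and 4 were labelled Glut1 transgenic (Glut1Tg), and Glut1 is the glucose transporter encoded by Slc2a1. A label called mouse group, with no stated meaning in the sources used here, crossed the genotypes: mouse group 1 held 3 Glut1Tg libraries (replicates 2, 3 and 4) and 2 WT libraries (replicates 1 and 3), and mouse group 2 held 1 Glut1Tg library (replicate 1) and 3 WT libraries (replicates 2, 4 and 5). The promoter of the transgene, the age and sex of the mice, the oxygen level of the cultures and whether libraries came from separate animals are not stated either, so p-values rest on a spread between libraries that may be technical. In bulk RNA, fewer cells of a kind and less transcript per cell cannot be told apart.

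HIF-1 is a pair of proteins, an alpha subunit encoded by Hif1a and a constitutive partner encoded by Arnt. When oxygen is present, prolyl hydroxylases of the Egln family mark the alpha subunit, the VHL protein binds the mark and recruits a ubiquitin ligase, and the subunit is degraded, while the asparaginyl hydroxylase encoded by Hif1an blocks the recruitment of coactivators. Egln3, Vegfa, Bnip3 and Bnip3l are known targets of HIF, and Egln3 thereby closes a negative feedback loop. In T cells HIF-1 is known for promoting glycolysis and for its influence on the balance between Th17 and regulatory T cells. Because the alpha subunit is controlled largely by its stability, transcript counts do not measure HIF-1 protein or its activity.

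HIF-1 binds DNA at a short core, and the sequences upstream of the genes are shown first because 2 of them (Bnip3 and Egln3) belong to HIF targets that moved in opposite directions below, 1 (Hif1an) to the gene with the largest difference, and 1 to Hif1a itself. Of the 10 genes, 9 had an entry in the RefSeq promoter table (build GRCm38.p6), with 11 entries in all, and the window used was the 250 bases before the start in that table. For Hif1a this start lies within the longer span that GENCODE gives the gene, so its window is not upstream of the GENCODE start. The letters searched were ACGTG and GCGTG on both strands, and ACGTG overlaps the palindrome CACGTG, a site that other factors such as MYC also bind. Capitals mark each match, read 5′ to 3′ on the strand of the gene, in the windows of Bnip3 (chr7:138909507-138909756, minus strand), Egln3 (chr12:54203875-54204124, minus strand), Hif1a (chr12:73907617-73907866, plus strand) and Hif1an (chr19:44562604-44562853, plus strand).
Bnip3: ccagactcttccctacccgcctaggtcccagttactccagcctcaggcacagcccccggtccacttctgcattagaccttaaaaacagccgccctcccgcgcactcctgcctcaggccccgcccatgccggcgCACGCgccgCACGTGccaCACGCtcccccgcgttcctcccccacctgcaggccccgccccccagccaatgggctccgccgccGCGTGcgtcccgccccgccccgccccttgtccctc
Egln3: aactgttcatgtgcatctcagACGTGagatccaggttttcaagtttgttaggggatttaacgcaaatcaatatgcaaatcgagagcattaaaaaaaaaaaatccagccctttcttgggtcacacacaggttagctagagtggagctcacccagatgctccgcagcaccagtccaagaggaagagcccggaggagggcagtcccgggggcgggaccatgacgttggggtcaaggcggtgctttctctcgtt
Hif1a: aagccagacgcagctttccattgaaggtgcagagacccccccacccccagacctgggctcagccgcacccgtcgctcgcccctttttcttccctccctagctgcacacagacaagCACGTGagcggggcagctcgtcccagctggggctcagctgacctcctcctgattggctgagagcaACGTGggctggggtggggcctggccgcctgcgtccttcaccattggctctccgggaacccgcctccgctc
Hif1an: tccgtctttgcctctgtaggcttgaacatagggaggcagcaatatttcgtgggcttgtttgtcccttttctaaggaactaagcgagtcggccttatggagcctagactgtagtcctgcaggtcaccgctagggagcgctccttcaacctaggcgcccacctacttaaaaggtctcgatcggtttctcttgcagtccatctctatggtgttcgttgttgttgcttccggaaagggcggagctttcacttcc
The Bnip3 window held 2 matches to ACGTG, both from the palindrome, and 3 to GCGTG. The Egln3 window held 1 match to ACGTG, the Hif1a window held 3, of which 2 came from the palindrome, and the Hif1an window held none. Counting every entry, 8 of 11 held ACGTG or GCGTG. Besides that of Hif1a, these include the second entries of Egln2 and Vegfa, whose windows lie within the GENCODE spans of the genes. The first Vegfa entry held no match. Of 32851 promoter windows of the same length in the table, 38.6% held ACGTG or GCGTG, 16.6% held ACGTG and 6.02% held CACGTG. These shares were not matched for GC content, which was 86% in the Egln1 window. A match describes letters, not a bound site, and no binding was measured.

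Facts of the whole series that touch these results were as follows. Total counts per library ranged from 20881035 to 31196428. Slc2a1 stood at 260.2 to 496 CPM (CPM being the count scaled to the TMM-adjusted library total) in the 4 Glut1Tg libraries and at 29.7 to 58.7 CPM in the 5 WT libraries, so no library went against its genotype label. Foxp3 stood at 621 to 1164 CPM, and all 6 T cell and Treg markers had counts in every library. WT replicate 2 and Glut1Tg replicate 1, both of mouse group 2, lay apart along the main axis of variation in log2 CPM (50.7% of the variance). The summed CPM of 10 proliferation genes was 5726 and 5955 in them and 1084 to 2472 in the other 7 libraries. Glut1Tg replicate 3 lay apart along the next axis (20.4%), and its summed levels of mast cell markers (2334 CPM), erythroid and platelet markers (1019 CPM) and myeloid markers (415 CPM) were the highest of the 9 libraries. In the other 8 libraries these sums ranged from 92.9 to 815, from 4.27 to 273 and from 6.39 to 32.2 CPM. At least 1 library had no count for 2 of 9 mast cell markers (Mcpt4 and Tpsb2) and 3 of 10 myeloid markers (S100a9, Mpo and Elane). Sums of B cell markers ranged from 3.71 to 9.67, of NK cell markers from 33.5 to 182 and of endothelial and stromal markers from 178.8 to 248.7 CPM.

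Scaled to the length of the exons, so that genes can be compared, Bnip3l and Hif1a were the most abundant of the 10 transcripts and Vegfa the least. Median levels over the 9 libraries were 43.7 CPM per kb for Bnip3l, which encodes a mitophagy receptor of the outer mitochondrial membrane, and 35.9 CPM per kb for Hif1a. The oxygen-sensing hydroxylase genes followed with 23.4 CPM per kb for Egln2 and 23.0 for Egln1, ahead of Vhl with 15.3 and Hif1an with 14.0. Arnt stood at 10.7 and Egln3 at 9.99 CPM per kb. Bnip3, a second mitophagy receptor related to Bnip3l, stood at 4.15 CPM per kb. Vegfa, which encodes an angiogenic growth factor, stood at 0.516 CPM per kb and rested on only 26 to 204 counts per library. The ranges over libraries of each gene and its neighbour in this order overlapped, with 1 exception: the lowest Bnip3 value, 2.45 CPM per kb, lay above the highest Vegfa value, 1.90. The plot of length-scaled levels shows this order.

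**Figure D1:**
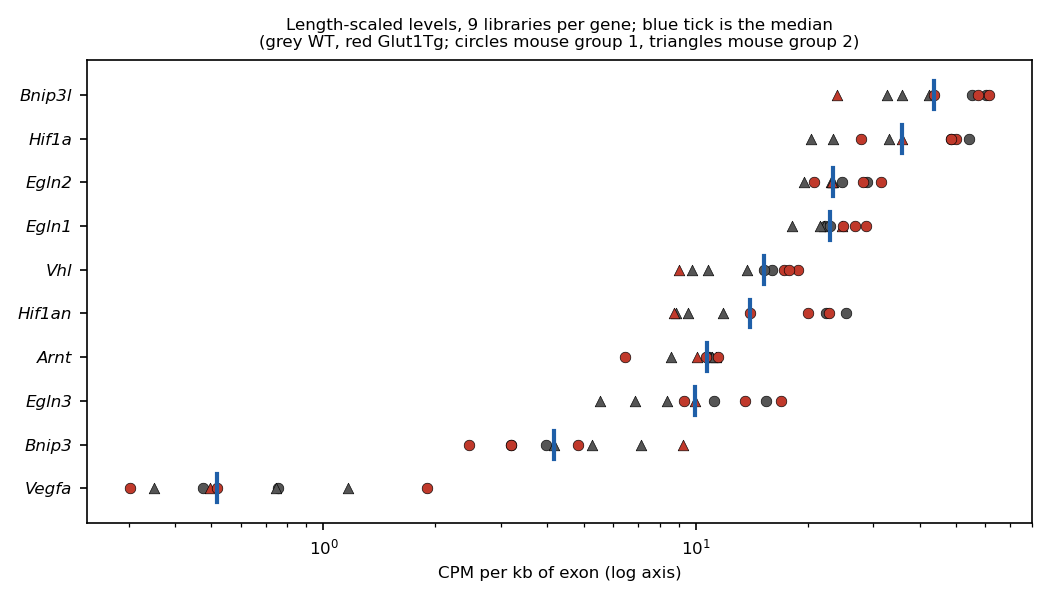
Levels of the 10 genes in CPM per kb of exon, on a log axis, with 1 point per library and the median over 9 libraries as a tick; grey points are WT, red points Glut1Tg, circles mouse group 1 and triangles mouse group 2. Bnip3l (median 43.7) and Hif1a (35.9) lie at the top, and Vegfa (0.516) lies below all values of the other 9 genes.

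The first comparison was that of the genotypes, which asks whether the transgene goes with another level of the oxygen-sensing pathway. None of the HIF-1 genes passed the test. By edgeR's quasi-likelihood test with mouse group in the model, 0 of the 10 passed an adjusted p of 0.05, where 0.00675% of all 14817 genes did, namely Slc2a1 alone. At an unadjusted p under 0.05 there were 0 of 10, where 6% of all genes passed, 4.5% as higher and 1.5% as lower in Glut1Tg. By adjusted p, DESeq2 and limma-voom each called 0 of 10, and at an unadjusted p under 0.05 they called 1 and 0. The log2 fold change (Glut1Tg over WT) was positive for 6 of the 10 and for 52.4% of all genes, and its median was 0.02 in both.

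Among the subunits, Hif1a stood at 212, 295, 164 and 286 CPM in Glut1Tg replicates 1 to 4 and at 321, 196, 286, 120.5 and 138 CPM in WT replicates 1 to 5. The genotypes overlapped, and the low libraries were WT replicates 4 and 5 and Glut1Tg replicate 3. The fitted fold was 1.01 (95% interval 0.692 to 1.48; log2 0.02, SE 0.24; edgeR adjusted p = 0.981). Arnt ranged from 51.7 to 92.2 CPM in Glut1Tg and from 68.8 to 90.6 CPM in WT, with a fold of 0.920 (0.684 to 1.24; adjusted p = 0.845). Its lowest value was again that of Glut1Tg replicate 3.

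Of the hydroxylases, Egln1, which encodes the main prolyl hydroxylase acting on HIF-1 alpha, came nearest to a difference. It stood at 88.8, 96.6, 103.5 and 89.3 CPM in Glut1Tg replicates 1 to 4 and at 80.2, 79.5, 82.5, 77.6 and 65.1 CPM in WT replicates 1 to 5. All 4 Glut1Tg libraries thus lay above all 5 WT libraries, a separation in either direction that 1.59% of all genes tested showed. Means were 94.6 ± 6.95 CPM (SD, n = 4) and 77.0 ± 6.86 CPM (SD, n = 5). From the model the fold was 1.19 (95% interval 0.994 to 1.43; log2 0.25, SE 0.12), and it did not pass (edgeR unadjusted p = 0.0562, adjusted p = 0.681). In mouse group 1 the difference of mean log2 CPM was 0.24 and in mouse group 2, where 1 Glut1Tg library is set against 3, it was 0.27.

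The other hydroxylase genes overlapped between genotypes. Egln2 ranged from 58.3 to 88.1 CPM in Glut1Tg and from 54.9 to 81.1 CPM in WT (fold 1.02, 0.804 to 1.297). Egln3 ranged from 24.8 to 45.1 and from 14.7 to 41.0 CPM (fold 1.15, 0.808 to 1.64). Hif1an ranged from 57.9 to 151 and from 58.6 to 167 CPM (fold 0.822, 0.628 to 1.07). For Vhl the ranges were 27.1 to 56.4 and 29.3 to 48.0 CPM (fold 0.997, 0.773 to 1.29). The edgeR adjusted p-values of these 4 genes lay between 0.681 and 0.994.

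The targets did not separate the genotypes either. Bnip3 had a fold of 1.21 (95% interval 0.785 to 1.87) and Bnip3l one of 0.817 (0.623 to 1.07), with edgeR adjusted p of 0.750 and 0.681. Vegfa had the widest interval of the 10, with a fold of 1.104 (0.395 to 3.09; edgeR adjusted p = 0.953). It stood at 2.12, 1.29, 8.15 and 2.21 CPM in Glut1Tg replicates 1 to 4 and at 3.23, 1.501, 2.03, 4.98 and 3.18 CPM in WT replicates 1 to 5. Glut1Tg replicate 3 was highest and WT replicate 4 second, and these libraries also had the highest mast cell sums, 2334 and 815 CPM. The order did not hold below them, since Glut1Tg replicate 2, with a mast cell sum of 622 CPM, had the lowest Vegfa. The part of mast cell RNA in these Vegfa values was not tested. Without Glut1Tg replicate 3 the log2 fold change of Vegfa went from 0.14 to -0.60 (edgeR adjusted p = 0.794).

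**Figure D2:**
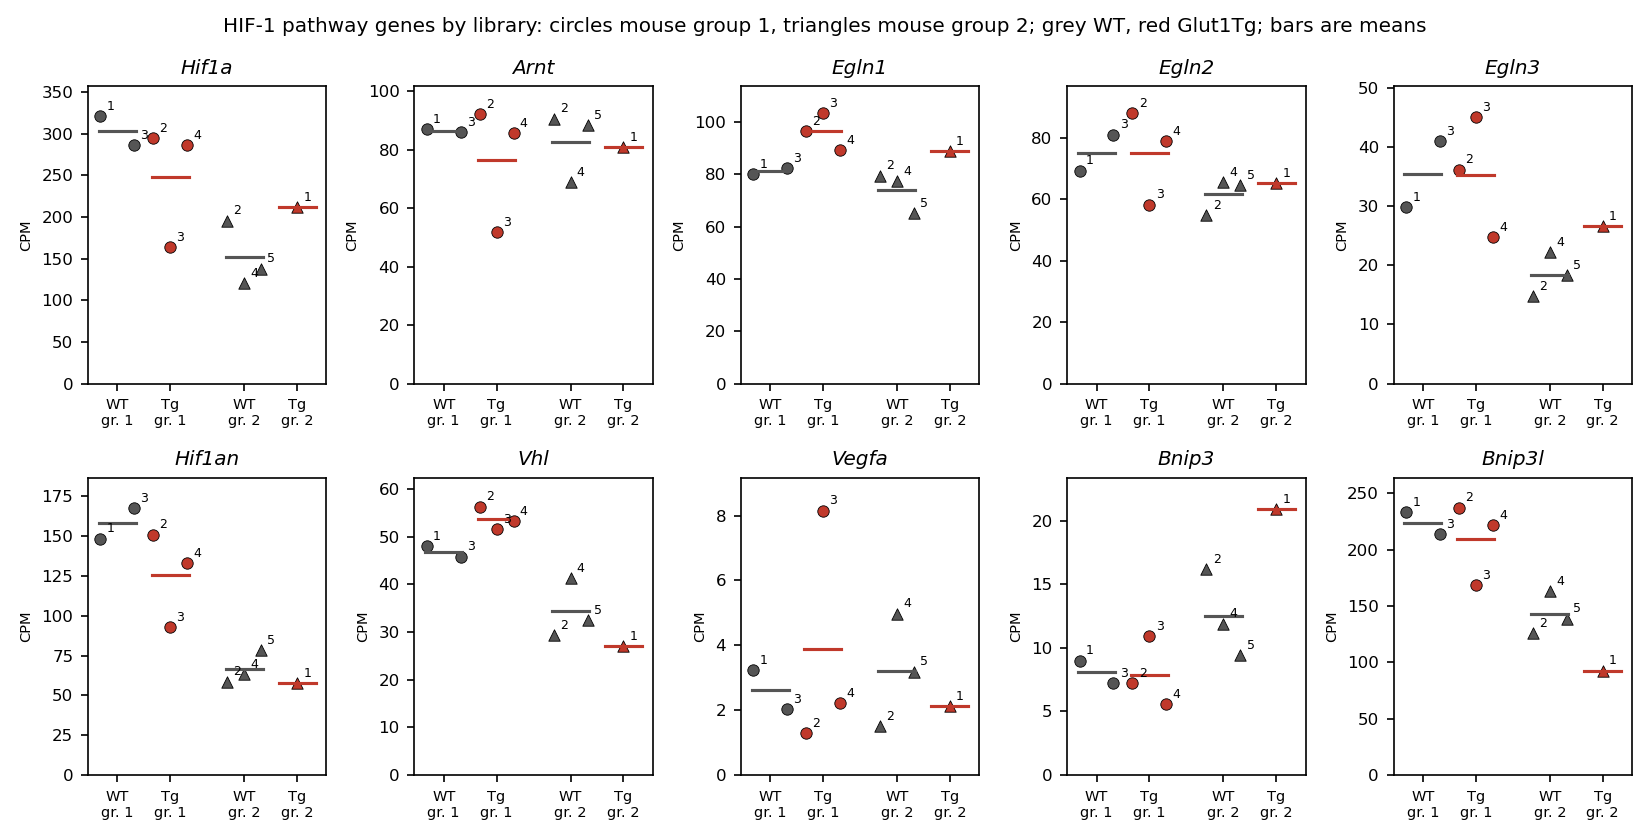
Level of each gene in CPM (linear axes from 0) by genotype and mouse group (gr. 1 and gr. 2, Tg for Glut1Tg), with 1 point per library, its replicate number beside it and the mean as a bar. Hif1an, Vhl and Bnip3l lie lower in all 4 libraries of mouse group 2, Bnip3 is highest in Glut1Tg replicate 1 (20.9 CPM), and Egln1 is the gene whose 4 Glut1Tg libraries lie above all 5 WT libraries.

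The second comparison was that of the mouse groups, and here 5 of the 10 genes differed. By the same edgeR fit, with genotype in the model, Hif1an, Bnip3l, Vhl and Egln3 were lower and Bnip3 was higher in mouse group 2, while Hif1a missed the threshold and Arnt, Egln1, Egln2 and Vegfa did not pass. Thus 5 of 10 genes passed, 4 lower and 1 higher, where 24.1% of all genes did, 11% as lower and 13.1% as higher in mouse group 2. At an unadjusted p under 0.05 there were 6 of 10, 1 of them higher, where 39.4% of all genes passed and 21% were higher. The log2 fold change was positive for 1 of the 10 and for 49.2% of all genes, and its median was -0.45, beside -0.01 over all genes. Values of 3 of the 10 did not overlap between mouse groups, as those of 21.8% of all genes did not, and 11.4% of all genes lay lower in mouse group 2 in this way. WT replicate 2 and Glut1Tg replicate 1, with their high proliferation sums, were 2 of the 4 libraries of mouse group 2. Without these libraries 0 of the 10 genes passed (4 at an unadjusted p under 0.05 by edgeR), and 593 genes passed in all. With Glut1Tg replicate 3 left out as well, an alternative added after the data had been seen, 4 of the 10 passed, all lower (Hif1a, Hif1an, Bnip3l and Egln3), and 3322 genes passed in all. In both alternatives the fold changes came from WT replicates 4 and 5 against WT replicates 1 and 3. Leaving out Glut1Tg replicate 3 thus changed the spread and hardly the fold changes.

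The largest fold of the 10 was that of Hif1an, the asparaginyl hydroxylase gene. In mouse group 1 it stood at 148 and 167 CPM in WT replicates 1 and 3 and at 151, 92.7 and 133 CPM in Glut1Tg replicates 2, 3 and 4. In mouse group 2 it stood at 58.6, 63.1 and 78.2 CPM in WT replicates 2, 4 and 5 and at 57.9 CPM in Glut1Tg replicate 1. The groups did not overlap, and Glut1Tg replicate 3 was the lowest of mouse group 1. The fold was 0.437 (95% interval 0.333 to 0.574; log2 -1.19, SE 0.17; edgeR adjusted p = 0.00332). Leaving out each of the 9 libraries in turn kept the log2 value between -1.26 and -1.13, with adjusted p of at most 0.0301. Without both WT replicate 2 and Glut1Tg replicate 1 it was -1.15 (edgeR adjusted p = 0.0563), and among WT libraries alone it was -1.24 (edgeR adjusted p = 0.0283).

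Vhl, the substrate receptor of the ligase that degrades hydroxylated HIF-1 alpha, was also lower. Its 5 libraries of mouse group 1 stood at 48.0 and 45.8 CPM (WT replicates 1 and 3) and 56.4, 51.7 and 53.3 CPM (Glut1Tg replicates 2, 3 and 4). Those of mouse group 2 stood at 29.3, 41.3 and 32.5 CPM (WT replicates 2, 4 and 5) and 27.1 CPM (Glut1Tg replicate 1). All 4 lay below all 5, and the 2 lowest were the libraries with high proliferation sums. The fold was 0.637 (0.492 to 0.824; log2 -0.65, SE 0.16; edgeR adjusted p = 0.0221). It was -0.45 on the log2 scale without Glut1Tg replicate 1 (edgeR adjusted p = 0.197) and -0.34 without both libraries with high proliferation sums (edgeR adjusted p = 0.287). The call was also lost without WT replicate 1 (0.0594) or WT replicate 2 (0.0583), where these are edgeR adjusted p-values.

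Egln3, the prolyl hydroxylase gene that is itself a HIF target, stood at 29.8 and 41.0 CPM in the WT and at 36.2, 45.1 and 24.8 CPM in the Glut1Tg libraries of mouse group 1. In mouse group 2 it stood at 14.7, 22.3 and 18.3 CPM in WT and 26.6 CPM in Glut1Tg replicate 1. The groups overlapped at Glut1Tg replicates 1 and 4. The fold was 0.602 (0.420 to 0.863; log2 -0.73, SE 0.23; edgeR adjusted p = 0.0466), just past the threshold. It fell short when any of 7 single libraries was left out, with log2 values from -0.55 to -0.94 over all 9 omissions, and with limma-voom (adjusted p = 0.0623). Its paralogues Egln1 and Egln2 had folds of 0.915 (0.763 to 1.096) and 0.839 (0.660 to 1.07), with edgeR adjusted p of 0.439 and 0.253. Whether the 3 paralogues differed from each other in this respect was not tested.

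Hif1a itself ran the same way without passing. Mouse group 1 held 321 and 286 CPM in WT and 295, 164 and 286 CPM in Glut1Tg, and mouse group 2 held 196, 120.5 and 138 CPM in WT and 212 CPM in Glut1Tg replicate 1. The groups overlapped through Glut1Tg replicate 3, whose 164 CPM lay far below the other 4 libraries of mouse group 1. The fold was 0.618 (0.420 to 0.908; log2 -0.70, SE 0.25; edgeR unadjusted p = 0.0197, adjusted p = 0.0683). Without Glut1Tg replicate 3 it passed (log2 -0.79; edgeR adjusted p = 0.0158), as it did in DESeq2 (log2 -0.69; adjusted p = 0.0381). Without WT replicate 2 and Glut1Tg replicate 1 the difference was larger (log2 -1.22) and the edgeR adjusted p was 0.0675. Mouse group 2 then held WT replicates 4 and 5 only, so this log2 value rested on them against WT replicates 1 and 3. Leaving out Glut1Tg replicate 3 besides these could therefore change the spread but hardly the log2 value, and Hif1a then passed (edgeR adjusted p = 0.000849). Arnt, the constitutive partner, had a fold of 0.994 (0.739 to 1.34; edgeR adjusted p = 0.977), with means of 80.5 ± 16.3 CPM in mouse group 1 (SD, n = 5) and 82.2 ± 9.85 CPM in mouse group 2 (SD, n = 4).

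The related mitophagy genes Bnip3 and Bnip3l moved in opposite directions. Bnip3l stood at 233 and 214 CPM (WT) and 237, 169 and 222 CPM (Glut1Tg) in mouse group 1, and at 126, 163 and 139 CPM (WT) and 92.6 CPM (Glut1Tg replicate 1) in mouse group 2. The groups did not overlap, and Glut1Tg replicate 3 was nearest to mouse group 2. The fold was 0.557 (0.425 to 0.731; log2 -0.84, SE 0.17; edgeR adjusted p = 0.0105). The 2 lowest values were those of Glut1Tg replicate 1 and WT replicate 2, the libraries with high proliferation sums. Without Glut1Tg replicate 1 the log2 value was -0.65 (edgeR adjusted p = 0.108), the single omission of 1 library that ended the call. It was -0.55 without both libraries with high proliferation sums (edgeR adjusted p = 0.18) and -0.64 among WT libraries alone (edgeR adjusted p = 0.0865).

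Bnip3 stood at 9.003 and 7.23 CPM (WT) and 7.21, 10.9 and 5.56 CPM (Glut1Tg) in mouse group 1, and at 16.2, 11.9 and 9.41 CPM (WT) and 20.9 CPM (Glut1Tg replicate 1) in mouse group 2. The highest values were those of the libraries with high proliferation sums, and the groups overlapped at WT replicate 5 and Glut1Tg replicate 3. The fold was 1.92 (1.24 to 2.95; log2 0.94, SE 0.28; edgeR adjusted p = 0.0380). Without Glut1Tg replicate 1 the log2 value was 0.61 (edgeR adjusted p = 0.333) and without both libraries with high proliferation sums it was 0.40 (edgeR adjusted p = 0.544). The call was also lost without WT replicates 1, 2 or 3 or Glut1Tg replicates 2 or 4, with log2 values of 0.85 to 1.09. The part of proliferation in the Bnip3 and Bnip3l values was not tested. Vegfa had a fold of 0.914 (0.327 to 2.56; edgeR adjusted p = 0.898) and its log2 value went from -0.13 to 0.05 without WT replicate 2, to 0.29 without Glut1Tg replicate 1 and to 0.30 without Glut1Tg replicate 3.

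**Figure D3:**
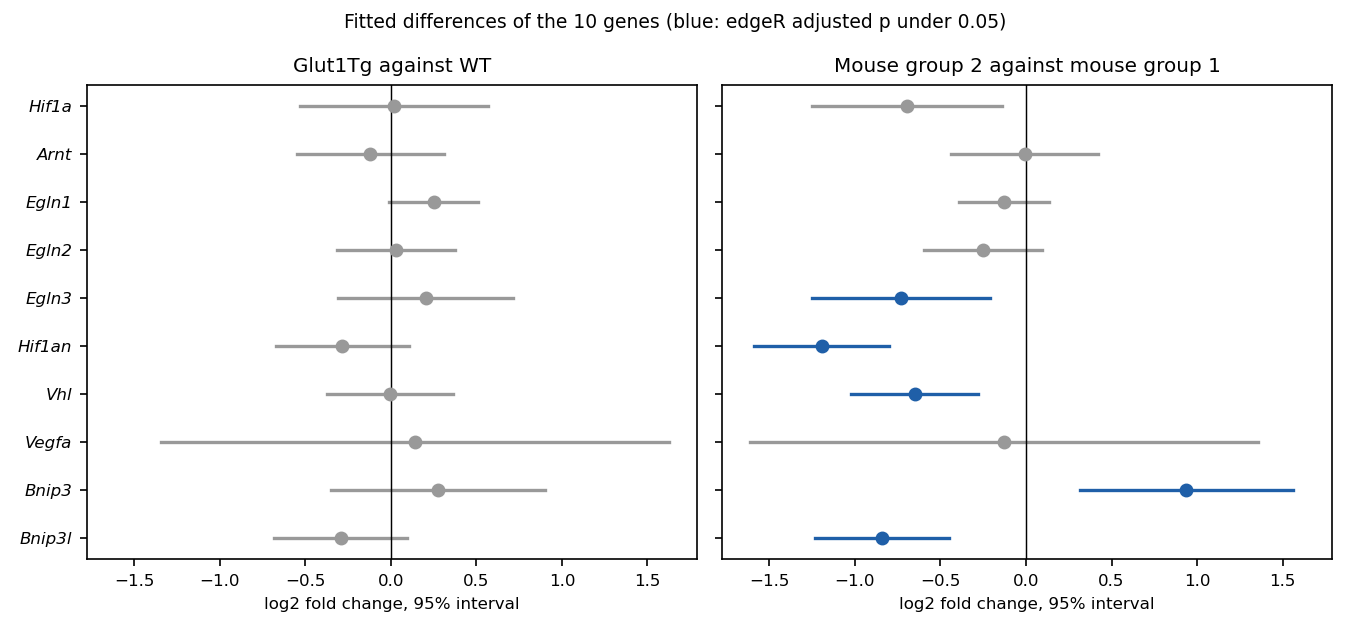
Fitted log2 fold changes with 95% intervals for Glut1Tg against WT (left) and mouse group 2 against mouse group 1 (right), over 9 libraries, with blue marking an edgeR adjusted p under 0.05. No interval on the left excludes 0, while on the right Hif1an, Vhl, Egln3 and Bnip3l (log2 -0.65 to -1.19) lie below 0 and Bnip3 (0.94) above it, with Hif1a below 0 without passing.

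Over the 9 omissions of a single library, from 1 to 5 of the 10 genes passed the mouse group test. The count was 2 without WT replicate 1 or 2, 3 without WT replicate 3 or Glut1Tg replicate 2, and 1 (Hif1an) without Glut1Tg replicate 1. Without Glut1Tg replicate 1, mouse group 2 held WT libraries only, so the fold changes came from the WT libraries. The fit on WT libraries alone, an alternative added after the data had been seen, is therefore nearly the same comparison. Hif1an was the single gene called there too. The plot of the mouse group difference with libraries left out shows how far each gene moved.

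**Figure D4:**
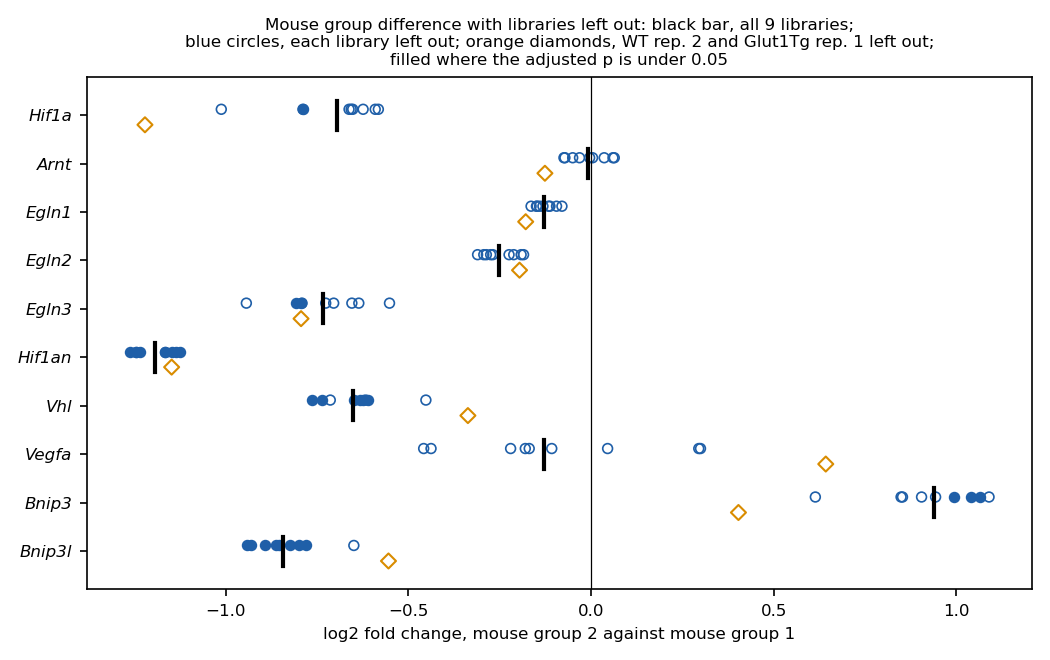
Log2 fold change of mouse group 2 against mouse group 1 for each gene with all 9 libraries (black bar), with each library left out in turn (blue circles) and without WT replicate 2 and Glut1Tg replicate 1 together (orange diamonds), filled where the edgeR adjusted p was under 0.05. All circles of Hif1an are filled (-1.26 to -1.13), whereas Bnip3 moves from 0.94 to 0.40 and Hif1a from -0.70 to -1.22 when both libraries are left out.

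Whether the genotype difference itself differed between mouse groups was tested with an interaction term, which rests on 1 Glut1Tg library in mouse group 2. By edgeR 0 of the 10 genes passed, and 0 of 14817 genes did, with 5.3% at an unadjusted p under 0.05 and none of the 10 among them. DESeq2 called 2 genes in all. The lowest edgeR adjusted p among the 10 was 0.741, shared by Hif1a, Vhl and Bnip3l, with unadjusted p of 0.135, 0.105 and 0.134.

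Other genes of the pathway were followed in 6 lists. They held 83 genes tested, each counted once. For genotype, Slc2a1 passed and 0 of the other 82 did by edgeR, DESeq2 or limma-voom. By edgeR, 7 of these were higher and 1 was lower in Glut1Tg when p-values were left unadjusted (p under 0.05). Over all genes 4.5% were higher and 1.5% lower in this way. Of 19 targets in glycolysis, Slc2a1 among them, 17 had a positive genotype log2 fold change and 2 a negative one, where 52.4% of all genes were positive. Their median was 0.60, beside 0.02 over all genes, and 0.34 without WT replicate 2 and Glut1Tg replicate 1. Medians of the other lists ran from -0.12 to 0.37. For mouse group, 8 of the 83 genes were higher and 18 lower in mouse group 2. Without WT replicate 2 and Glut1Tg replicate 1, 1 was higher and 6 were lower. Over all 14817 genes tested 13.1% were higher and 11% lower with all libraries, and 213 genes were higher and 380 lower without both. The counts in the lists were 1 higher and 7 lower without Glut1Tg replicate 1 alone, beside 228 and 440 over all genes. Without WT replicate 2 alone they were 3 and 14, beside 1090 and 1044 over all genes.

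Over all genes tested, 11% were lower in mouse group 2 and 13.1% higher. Of 9 HIF subunits and cofactors, 1 was lower, which is near that share, and none higher. This was Cited2, whose product competes with HIF-1 alpha for the coactivators p300 and CBP, with means of 157 ± 46.2 (SD, n = 5) against 36.5 ± 20.5 CPM (SD, n = 4; log2 -2.26, SE 0.41; edgeR adjusted p = 0.00668). Its lowest values, 20.4 and 22.6 CPM, were those of WT replicate 2 and Glut1Tg replicate 1, and the count of this list was 0 without Glut1Tg replicate 1, without both, or among WT libraries alone. The genes of the coactivators, Ep300 and Crebbp, had log2 fold changes of 0.12 and -0.28 and did not pass. Of 12 genes of the VHL ligase and of HIF degradation, 3 were lower and none higher. They were Siah1a (log2 -1.87), Siah2 (-0.97) and Siah1b (-0.61), which encode ubiquitin ligases that act on the prolyl hydroxylases, with edgeR adjusted p of 0.00578, 0.0371 and 0.0493. Siah1a and Siah2 were lowest in WT replicate 2 and Glut1Tg replicate 1 (19.0 and 15.2 CPM for Siah1a), and the count of 3 was 1 without either or both of these libraries and 0 among WT libraries alone. The median log2 fold changes of these lists were 0.12 and -0.08, beside -0.01 over all genes.

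Other known targets of HIF were counted in and outside glycolysis. Of 19 in glycolysis, 6 were higher in mouse group 2 and 1 (Slc2a1) was lower, where 13.1% of all genes were higher and 11% lower. The median log2 fold change of the 19 was 0.62. The lactate exporter gene Slc16a3 had means of 14.8 ± 2.88 (mouse group 1) and 58.7 ± 46.8 CPM (mouse group 2) (log2 2.12, edgeR adjusted p = 0.0112). It stood at 77.8 and 115.9 CPM in WT replicate 2 and Glut1Tg replicate 1. In WT replicates 4 and 5 it stood at 19.05 and 21.85 CPM, against at most 19.58 CPM in mouse group 1. Pgam1 and Hk1, genes of glycolytic enzymes, had log2 fold changes of 1.47 and 0.54. Pgam1 too was highest in WT replicate 2 and Glut1Tg replicate 1 (223 and 349 CPM). In WT replicates 4 and 5 it lay within the range of mouse group 1, while the Hk1 values of the mouse groups did not overlap. Of 24 targets outside glycolysis that were tested, 2 were higher and 7 lower, with a median of 0.00. Higher were the stress-response gene Ndrg1 (15.9 ± 2.30 against 36.0 ± 5.70 CPM; log2 1.12; edgeR adjusted p = 0.00332) and the transferrin receptor gene Tfrc (log2 1.95; edgeR adjusted p = 0.0258), the latter named after its value was seen. Among the 7 lower genes, besides Cited2, were the nuclear receptor gene Rora (110.3 ± 49.7 against 33.4 ± 3.46 CPM; log2 -1.87) and the chemokine receptor gene Cxcr4 (log2 -1.59), with edgeR adjusted p of 0.00461 and 0.00986. Without WT replicate 2 and Glut1Tg replicate 1, none of the 19 glycolytic targets passed (by edgeR, unadjusted p under 0.05 in 2 higher and 1 lower), their median was 0.10, and 1 of the 24 others was higher and 1 lower. Without Glut1Tg replicate 1 alone these counts were again 0 of 19, and 1 higher and 1 lower of 24. Without WT replicate 2 alone, 2 glycolytic targets were higher and 1 lower, and of the 24 others 1 was higher and 5 lower. Over all 14817 genes, 213 were higher and 380 lower without both libraries. Without Glut1Tg replicate 1 alone 228 were higher and 440 lower, and without WT replicate 2 alone 1090 and 1044. Proliferation moved with the counts of targets, as 8 of its 10 genes were higher in mouse group 2, and its part in them was not tested.

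In a list of mitophagy genes that holds neither Bnip3 nor Bnip3l, those that passed were lower in mouse group 2, as Bnip3l was and Bnip3 was not. Of 16 receptors and adaptors 7 were lower and none higher, where 11% of all genes were lower and 13.1% higher, with a median log2 fold change of -0.56. Among them were the autophagy cargo receptor genes Tax1bp1 (593 ± 38.8 against 311 ± 36.0 CPM; log2 -0.996) and Sqstm1 (583 ± 72.4 against 231 ± 71.7 CPM; log2 -1.45), the Atg8 family gene Gabarapl1 (log2 -0.96) and the kinase gene Tbk1 (log2 -0.65), with edgeR adjusted p of 0.00197, 0.00387, 0.00410 and 0.00453. Without WT replicate 2 and Glut1Tg replicate 1, 4 of the 16 were lower, where 380 of all 14817 genes were, and the median was -0.60. Among WT libraries alone 3 of the 16 were lower, where 438 of all genes were. Of the VEGF ligands and receptors, 5 were tested and 0 passed by edgeR, DESeq2 or limma-voom (1 at an unadjusted p under 0.05 by edgeR). The coreceptor gene Nrp1, a known surface marker of Treg subsets, was the most abundant at 189 ± 33.2 and 269 ± 53.1 CPM, and Vegfb and Nrp2 had at most 9.25 and 3.28 CPM as group means. The receptor genes Flt1, Kdr and Flt4 had too few counts to be tested.

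The genes whose levels ran most like those of 4 chosen members were found by Pearson's r of log2 CPM over the 9 libraries, which share mouse group and proliferation differences, among 8631 genes with a mean of at least 10 CPM and no predicted symbol. Hif1a was most like Cdc73, Pank3 and Ric1 (r of 0.99, 0.99 and 0.98, and 0.99 for each over the 7 libraries without WT replicate 2 and Glut1Tg replicate 1). Egln3 was most like Tspan3 (0.98 and 0.97 over 7), Commd9 and Wdr4. Vegfa was most like Arl8a (0.95 and 0.94 over 7), Pglyrp1 and Dnajc15, and Bnip3 was most like Gtf2e2 (0.97 and 0.96 over 7), Mrpl3 and Tada2a. These values are a description of 9 libraries, with no test.

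Some reads of these genes could belong to others. In the GENCODE M21 annotation (GRCm38, the same assembly as mm10), Hif1a on chromosome 12 (73901375 to 73947530, plus strand) is overlapped along its whole length by the antisense transcript Gm15283, which had 406 counts over all libraries against 49834 for Hif1a. On the same strand it shares 9878 bases with the protein-coding gene Gm49321, which has no row under that name in the counts used here. Arnt holds the pseudogene Gm42672 on its own strand, which had 21 counts against 18257. Bnip3 on chromosome 7 (138890836 to 138909519, minus strand) is overlapped on the opposite strand by the antisense transcript Gm45507 and, over 852 bases, by the pseudogene Gm18258. Egln2 shares 11 bases with the protein-coding gene Cyp2t4 on the opposite strand, which had 655 counts against 15610. Bnip3l has the processed pseudogene Bnip3l-ps, which had 661 counts against 39460, and Vhl has Vhl-ps1, which had 5 against 9565. Hif1an lies on chromosome 19 (44562850 to 44576274, plus strand), Vhl on chromosome 6 (113623959 to 113631633, plus strand), and Egln3 on chromosome 12 (54178981 to 54203860, minus strand), and none of these 3 spans overlapped another annotated gene. Arnt lies on chromosome 3 (95434388 to 95497240, plus strand), Egln1 on chromosome 8 (124908587 to 124949324, minus strand), Egln2 on chromosome 7 (27158658 to 27166802, minus strand), Vegfa on chromosome 17 (46016993 to 46032369, minus strand) and Bnip3l on chromosome 14 (66985239 to 67008877, minus strand). The library kit keeps strand, but the strand setting of the counting is unknown from the sources used here.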

How the data were processed

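Stranded TruSeq mRNA libraries from column-purified RNA were sequenced as paired ends on an Illumina HiSeq, per the labels' protocols. The submitters' processing notes name bcl2fastq, TopHat2, featureCounts, DESeq2 and the build mm10, without role, version or strand setting. The authors deposited raw counts per gene, and a table of log2 values for fewer genes, relative to the mean of WT replicates 1 and 3, whose making no source used here gives and which served for 1 alternative. Columns were matched to libraries by genotype and number.

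The raw counts were fitted with edgeR 4.0.16 under R 4.3.3 (filterByExpr by genotype, TMM, quasi-likelihood, terms for mouse group and genotype). Standard errors were obtained from the F statistics as the log2 fold change divided by the root of F. Benjamini-Hochberg adjustment ran over all 14817 genes, at 0.05. DESeq2 1.42.0 and limma 3.58.1 served as alternatives. The procedure was also run on simulated counts, drawn independently for each library. No library was set apart in them, unlike in these data, so the run is not used as support here. Lengths are unions of GENCODE M21 exons. All pairs of libraries differed by more than sampling noise, and all libraries were kept.

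The members, lists and alternatives were chosen with earlier results of these data known. The rule named all 10 members, with Slc2a1 and Foxp3 as checks of the labels. From each list it named up to 4 genes that passed, or otherwise up to 3 with the highest mean CPM. For Hif1a, Egln3, Vegfa and Bnip3 it named the 3 most similar genes. Genes named outside this rule include Tfrc, Ep300, Crebbp, Flt1, Kdr and Flt4, markers without a count in some library, and overlapping genes and pseudogenes. Values are given with means ± SD where stated.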

Additional observations from a re-analysis of the deposited data

Results flagged for a closer look

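Of 40 combinations of a gene and a group of 4 or 5 libraries, 8 held a library whose gap to its nearest neighbour was large for the range of the group. Independent normal values would pass the cut-off in about 1 of 20 groups. That rate does not hold here, as each library lies in a genotype group and a mouse group, and genotype groups mix the mouse groups. Glut1Tg replicate 3 was the library in 4 of the 8. It was low for Hif1a in mouse group 1 (164 CPM, the next being 286) and for Arnt in mouse group 1 (51.7 CPM, the next being 85.7). It was high for Vegfa in Glut1Tg (8.15 CPM, the next being 2.21) and in mouse group 1 (8.15 CPM, the next being 3.23). This library also had the highest mast cell, myeloid and platelet marker sums, whose part in these values was not tested.

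The other 4 concerned single libraries. Vhl in Glut1Tg was low in replicate 1 (27.1 CPM, the next being 51.7), the Glut1Tg library of mouse group 2. Arnt in WT was low in replicate 4 (68.8 CPM, the next being 86.1), Egln1 in WT was low in replicate 5 (65.1 CPM, the next being 77.6), and Egln2 in mouse group 2 was low in WT replicate 2 (54.9 CPM, the next being 64.7).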

How the results depend on the processing

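In none of the alternatives did any of the 10 genes pass the genotype test, and Egln1 kept its direction in all 18 (log2 0.18 to 0.30). The 18 are not independent. Mouse group 1 only and each setting without Glut1Tg replicate 1 compare the genotypes within mouse group 1 alone. Genotype fold changes of the genes other than Egln1, none of which passed, changed sign in at least 1 alternative. With no mouse group term the log2 values were 0.0731 for Hif1an, 0.26 for Vhl and 0.0413 for Bnip3l. With mouse group 1 only they were -0.29 for Hif1a, -0.0069 for Egln2, -0.01 for Egln3, 0.19 for Vhl and -0.0444 for Bnip3. Without WT replicate 2 and Glut1Tg replicate 1 they were -0.31 for Hif1a, -0.0266 for Egln2, -0.0368 for Egln3, 0.17 for Vhl and -0.0754 for Bnip3, and for mouse group Vegfa stood at 0.64. Without these and Glut1Tg replicate 3 they were -0.0747 for Hif1a, 0.0268 for Arnt, -0.23 for Egln3, 0.21 for Vhl, -0.58 for Vegfa, -0.36 for Bnip3 and 0.026 for Bnip3l, and for mouse group Vegfa stood at 0.64. With limma-voom they were -0.0019 for Hif1a, 0.0061 for Vhl and -0.054 for Vegfa, and with the deposited log2 table -0.029 for Hif1a, -0.0002 for Egln2 and -0.0468 for Vegfa. For mouse group, Arnt stood at 0.0265 without the low-count filter and at 0.0017 with limma-voom, and Vegfa at 0.30 among WT libraries only.

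Leaving out each library in turn gave genotype log2 ranges of -0.31 to 0.17 (Hif1a), -0.0524 to 0.11 (Egln2), -0.0366 to 0.39 (Egln3), -0.0922 to 0.17 (Vhl), -0.60 to 0.52 (Vegfa) and -0.0754 to 0.41 (Bnip3), and mouse group ranges of -0.0742 to 0.0635 (Arnt) and -0.46 to 0.30 (Vegfa). The cause was not tested.

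The replicate numbers of the labels were used as a replicate block in 1 alternative, although they do not pair the libraries: same-numbered libraries 1, 2 and 4 belong to different mouse groups, and their deviations correlated at -0.51, -0.59, 0.23 and -0.21 for numbers 1 to 4. The fit with this block left out WT replicate 5, which has no Glut1Tg library of its number, and held no mouse group term. Its genotype values therefore also hold mouse group differences. With this block 0 genes passed the genotype test, and log2 values were 0.0584 for Hif1an, 0.17 for Vhl, -0.0473 for Vegfa and -0.12 for Bnip3.

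Over all genes, the genotype test called 1 gene, 7 with DESeq2, 2 without the low-count filter, 0 with mouse group 1 only, 0 without WT replicate 2 and Glut1Tg replicate 1, 13 without these and Glut1Tg replicate 3, and 1 to 2 with each library left out. The mouse group test called 3576 genes, 593 without WT replicate 2 and Glut1Tg replicate 1, 642 among WT libraries only, 3322 when Glut1Tg replicate 3 was left out besides the first 2, and 668 to 4552 with each library left out. The 10 members among them numbered 5, with 0, 1 and 4 in these alternatives in the same order and 1 to 5 over single omissions. The interaction called 0 genes by edgeR and 2 by DESeq2.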

Other observations

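The ratio of Bnip3l to Bnip3 counts within a library, formed after their values were seen and so a description, did not overlap between mouse groups. It stood at 25.9 and 29.6 in WT replicates 1 and 3 and at 32.9, 15.5 and 39.9 in Glut1Tg replicates 2, 3 and 4 of mouse group 1. In mouse group 2 it stood at 7.79, 13.7 and 14.8 in WT replicates 2, 4 and 5 and at 4.43 in Glut1Tg replicate 1. A ratio within a library does not depend on how libraries are scaled, and it shows unequal change only.

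The ratio of Hif1an to Hif1a counts, formed in the same way, set apart other libraries. It was 0.273 in Glut1Tg replicate 1 and 0.300 in WT replicate 2, the libraries with high proliferation sums, and between 0.463 and 0.586 in the other 7. WT replicates 4 and 5 of mouse group 2, at 0.524 and 0.568, lay among the values of mouse group 1, as both genes were low in them.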
